A study of Homo sapiens with 12 samples.

Results

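miR-4521 (hsa-miR-4521) is a 22-nt RNA listed on the 5p arm of 1 hairpin, and it is 1 of 1277 mature miRNAs in the collapsed count table and 1 of the 310 that passed a filter on low counts. It was chosen from its reads in all 12 libraries, for many reads left without DROSHA among the miRNAs that rise with wild-type DROSHA and for few reads with the belt deletion. Its levels are therefore given as a description, with no test. Every library was made from a DROSHA knockout of HCT116, an established line from a human colorectal cancer, and all cells received 4.5 µg of the plasmid pXC-NLS-DG4. A second plasmid of the pCK type set the 4 groups of 3 libraries: empty pCK, pCK with wild-type DROSHA, pCK with the m4 mutant, and pCK with a DROSHA that lacks the belt. DROSHA plasmids were given at 4.5 µg, and the amount of empty pCK is not stated. What pXC-NLS-DG4 codes for, what m4 alters and whether the repeats are separate cultures is not stated in the labels, so the spread below may be technical. Reads of a small RNA pool cannot tell fewer producing cells from less RNA per cell.

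DROSHA is the nuclear RNase III enzyme that, with DGCR8, cuts most primary miRNA transcripts into hairpins, which DICER1 then trims. The belt is a segment of DROSHA that lies along the RNA stem in structures of the complex. Some small RNAs in miRNA catalogues reach their ends by other routes. Mirtrons are cut by the spliceosome, miR-320a and miR-484 come from hairpins that need no DROSHA cut, and some entries are pieces of tRNA precursors. RNA polymerase III ends a tRNA precursor in a run of U, and the 3' trailer behind the tRNA body is released by the nuclease ELAC2. miR-4521 has also been catalogued, in work on leukaemia and lung cancer, as a tRNA-derived small RNA.

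The sequences of miR-4521 and of its hairpin were taken from RefSeq on GRCh38.p14. Whether the counted reads came from the hairpin or from a tRNA precursor was not tested. In the first line capitals mark the seed (bases 2 to 8), and in the second they mark the mature RNA within the hairpin.
miR-4521: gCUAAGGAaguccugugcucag
MIR4521 hairpin: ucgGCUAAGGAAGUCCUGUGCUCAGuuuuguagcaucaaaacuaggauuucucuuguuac

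The hairpin, of 60 bases, lies on chromosome 17 from 8186945 to 8187004 on the plus strand, and the mature RNA runs from 8186948 to 8186969. The serine tRNA gene TRS-GCT4-3 occupies 8186866 to 8186947, so it ended on the base before the mature RNA and overlapped the hairpin by 3 bases. The strand of the tRNA genes was not analysed here. Among 1205 positions of 1117 listed mature names on chromosomes with a tRNA gene, miR-4521 was the only one with 0 bases to the nearest of 465 tRNA genes. The next nearest was miR-4638-3p, at 109 bases. The tRNA genes TRT-AGT1-1, TRW-CCA3-3 and TRI-AAT5-5 stood 155, 515 and 588 bases from the hairpin. No RefSeq gene contained the hairpin. The nearest coding genes were TMEM107, 10.6 kb upstream, and BORCS6, 1.34 kb downstream. Of the other miRNA genes within 500 kb, MIR6883 gave miR-6883-3p with at most 1 read in a library.

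**Figure D1:**
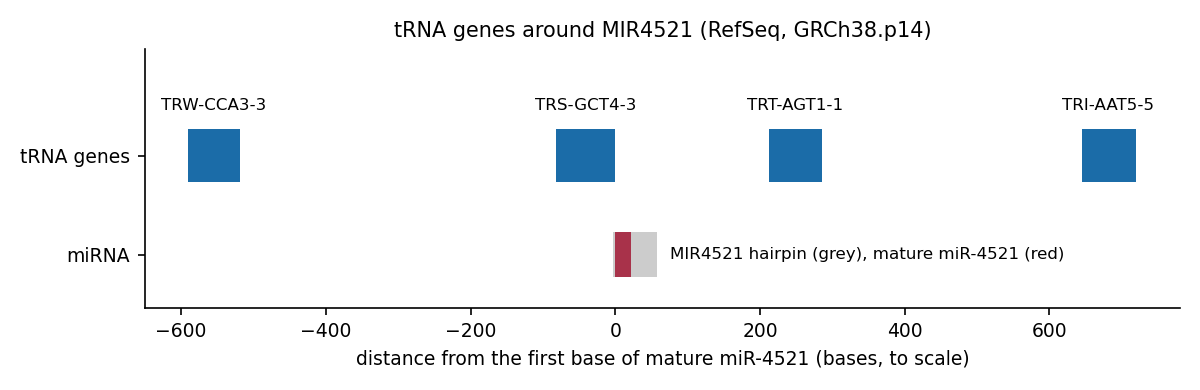
Map of the tRNA genes (blue) and the MIR4521 hairpin (grey, with the mature RNA in red) against the distance in bases from the first base of mature miR-4521, to scale. TRS-GCT4-3 ends on the base before the mature RNA starts.

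The mature RNA fills bases 4 to 25 of the hairpin and is followed there by UUUU. Such a run directly behind the mature part was found for 6 of 1110 listed miRNAs with a hairpin sequence (0.541%). The hairpin folded weakly with RNAfold, at -17.1 kcal/mol against a median of -36.4 over 772 hairpins, and 13 of the other 771 were as weak or weaker. Per base its energy was -0.285 against a median of -0.457, and 31 of the other 771 were as weak or weaker. Its GC content was 41.7% against a median of 54.6%. In the predicted fold 15 of the 22 mature bases were paired. No other of 2370 mature names in RefSeq shared its seed, or bases 2 to 7 of it, so it had no seed family to set beside it.

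The 12 libraries held 132667 to 407461 reads in the deposited table, and 101886 to 332081 after repeated lines had been collapsed. Levels are scaled reads, the count divided by a size factor taken from 5 features made without DROSHA: the miR-320 family, the capped miR-484, and 3 mirtrons (miR-877, miR-1226, miR-1224). DROSHA itself is not measured by these libraries. miR-21-5p, which needs DROSHA, stood at 2052 ± 364 scaled reads (SD, n = 3) in the empty group and at 80950 ± 29538 in the wild-type group, higher by 5.30 on the log2 scale (edgeR quasi-likelihood test, adjusted p = 7.69e-20). All 7 markers of colon epithelium were listed, and their summed scaled reads ran from 73.7 to 95.5 in the empty group, 131 to 216 for wild type, 178 to 271 for m4 and 114 to 346 for the belt deletion. Of these, miR-194-5p had no read with the empty plasmid. Among the 4 that passed the filter, edgeR called miR-192-5p and miR-200b-3p higher with wild type than with the empty plasmid, and not miR-200c-3p or miR-429. Beside this, 42.6% of all tested were called higher. Of 11 markers of other cell types 8 were listed. Their summed levels were 216 to 293, 479 to 700, 325 to 628 and 569 to 786 in the same order. Of these, 4 passed the filter. The endothelial marker miR-126-3p went from 9.44 ± 2.3 with the empty plasmid to 393 ± 112 with wild type (5.37, edgeR adjusted p = 2.97e-20). The neuron marker miR-9-5p went from 20.2 ± 2.09 to 69.1 ± 9.1 (1.77, edgeR adjusted p = 6.48e-05). The smooth muscle marker miR-143-3p went from 133 ± 31 to 112 ± 35.8 (-0.25, edgeR adjusted p = 0.631). The other smooth muscle marker, miR-145-5p, did not pass the filter and had at most 3 reads in any library. The liver marker miR-122-5p went from 78.8 ± 10.6 to 48.9 ± 12.5 (-0.69, edgeR adjusted p = 0.163). The muscle marker miR-1-3p and the blood markers miR-142-5p and miR-451a had at most 1 read in any library. The neuron marker miR-124-3p, the muscle marker miR-133a-3p and the blood marker miR-223-3p were not among the counted miRNAs. The part of these markers in the levels of miR-4521 was not tested.

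Without DROSHA miR-4521 was among the most abundant miRNAs of the cell line. With the empty plasmid it had 1688, 2088 and 1269 reads in replicates 1, 2 and 3, which are 1270, 1452 and 843 scaled reads, a mean of 1188 ± 313. It was the 8th most abundant miRNA by group mean. Only miR-21-5p, at rank 6, stood above it among the miRNAs that were called higher with wild type. Its neighbours miR-320c (1274 ± 91.6) and miR-1224-5p (856 ± 24.2), which mature without DROSHA, overlapped with it.

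With wild-type DROSHA the reads were 2069, 2106 and 1813, or 2460, 3788 and 2043 scaled reads, a mean of 2764 ± 911. Each of the 3 libraries lay above all 3 with the empty plasmid. The difference was 1.22 on the log2 scale (SE 0.35), or 2.33-fold. Beside this, groups did not overlap upward for 46.5% of the 310 miRNAs tested. The raw counts of the 2 groups were close, and the difference came with size factors that were lower with wild type. As a share of all collapsed reads miR-4521 took 0.723% ± 0.288 in the empty group and 0.926% ± 0.251 in the wild-type group (SD, n = 3), and these shares overlapped. The miR-320 family took 77.9% to 82.4% of the collapsed reads with the empty plasmid and 27.9% to 47% with wild type. Of the reads outside miR-320, miR-4521 took less with wild type. There it had 3.06%, 4.91% and 2.61% with the empty plasmid and 1.08%, 1.68% and 1.59% with wild type. The difference was 0.30 under TMM scaling, 0.36 under total counts and 0.54 with the size factors of DESeq2. The median miRNA moved with the scaling too, from 0.72 to -0.14, -0.10 and 0.06. Relative to the median miRNA the difference was 0.49 as reported and 0.44, 0.45 and 0.48 under those 3 scalings.

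**Figure D2:**
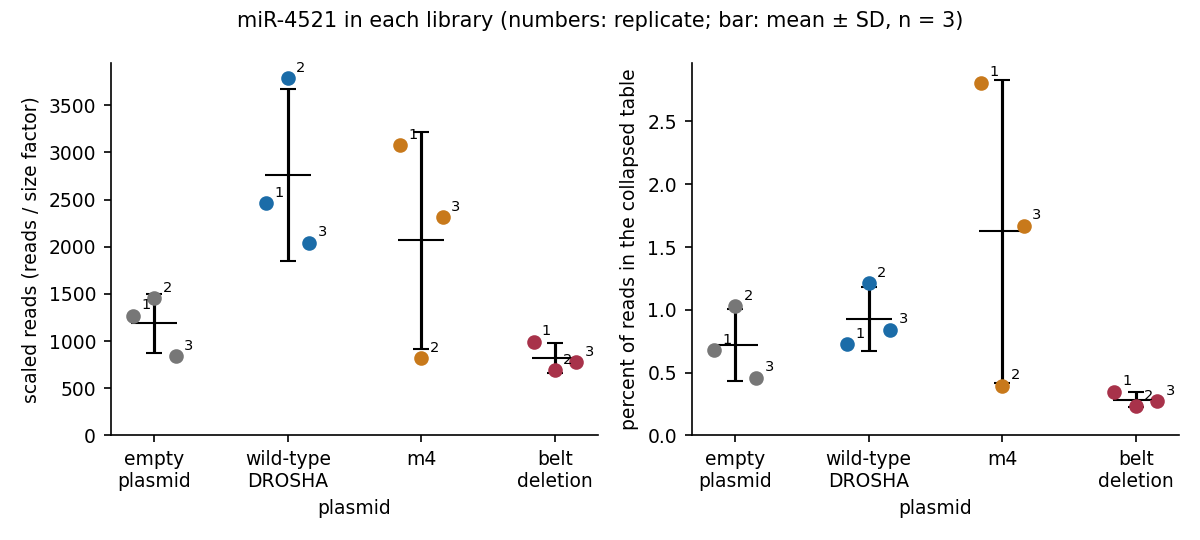
miR-4521 in each library by plasmid, as scaled reads (left) and as percent of reads in the collapsed table (right), with replicate numbers beside the points and bars for the mean ± SD (n = 3). With the belt deletion all 3 libraries are at 993 scaled reads or less, while the m4 libraries run from 816 to 3074.

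With m4 the libraries did not stand together. The reads were 2864, 883 and 1807, or 3074, 816 and 2312 scaled reads, a mean of 2067 ± 1149. Replicates 1 and 3 were within the range of wild type, and replicate 2 was below every empty and wild-type library. The highest m4 library was 3.77 times the lowest, against 1.72 for the empty plasmid, 1.85 for wild type and 1.43 for the belt deletion. The table held 298695 reads for m4 replicate 2 and 132667 and 139200 for replicates 1 and 3. The miR-320 family took 74.4% of the collapsed reads in replicate 2, and 62.2% and 55.3% in the other 2. The part of depth in this spread was not tested. The difference of m4 from the empty plasmid was 0.80 (SE 0.35), and ran from 0.37 without m4 replicate 1 to 1.21 without m4 replicate 2. From wild type m4 differed by -0.42 (SE 0.35), by -0.84 without m4 replicate 1, by -0.03 without m4 replicate 2 and by 0.81 under total counts. The groups overlapped in both comparisons.

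With the belt deletion miR-4521 was lowest. The reads were 1129, 552 and 910, or 993, 692 and 776 scaled reads, a mean of 821 ± 155. All 3 libraries lay below all 3 with wild type, by -1.75 (SE 0.36) or 3.37-fold, beside 17.1% of the tested miRNAs whose groups did not overlap downward. Under the other scalings this difference ran from -1.96 to -1.57. Read against each of the 5 reference features alone, the belt deletion stood below wild type by 1.35 or more on the log2 scale, from -2.48 (miR-1224) to -1.35 (miR-484), with no overlap. Against the empty plasmid the difference was -0.53 (SE 0.35). Belt deletion replicate 1 (993) was above empty replicate 3 (843), so these groups overlapped, where 3.87% of the tested miRNAs had groups that did not overlap downward. Read against miR-484 alone the sign turned, to 0.15, while against miR-1224 and miR-1226 it was -0.92 and -0.76 with no overlap. From m4 the belt deletion differed by -1.33 (SE 0.35), with 1 of 9 pairs of libraries in the other direction, and by -0.91 without m4 replicate 1.

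**Figure D3:**
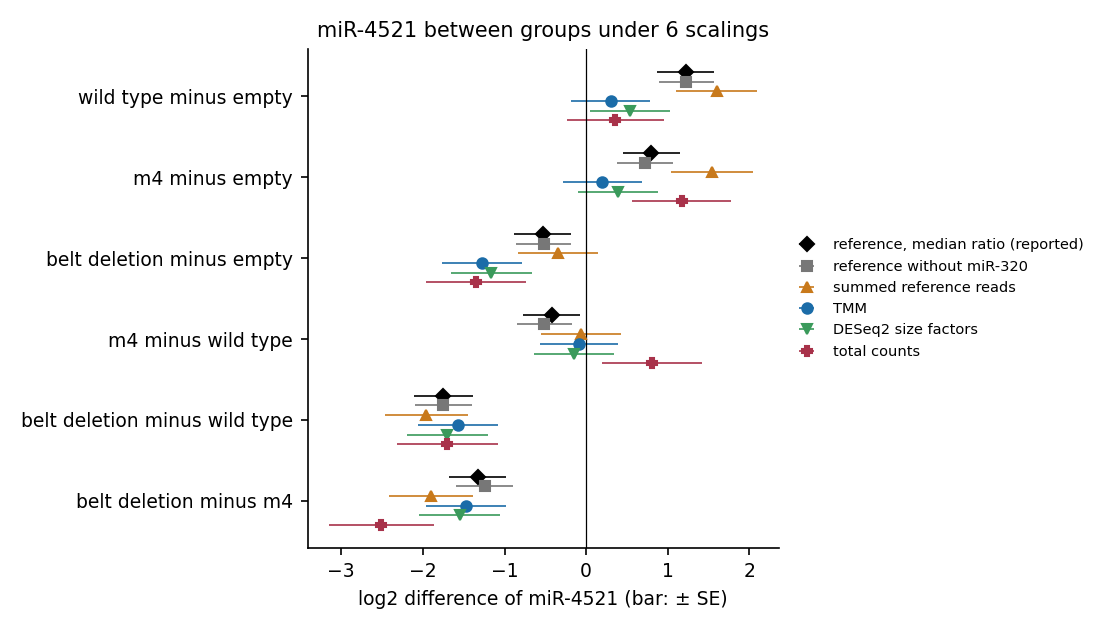
log2 difference of miR-4521 between groups (x axis, bars ± SE) for the 6 pairs of groups under 6 scalings. Belt deletion minus wild type runs from -1.96 to -1.57, and m4 minus wild type changes sign under total counts.

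The order of the 4 group means was wild type, m4, empty plasmid and belt deletion. Among neighbours in this order, m4 overlapped with wild type and with the empty plasmid, and the empty plasmid overlapped with the belt deletion. miR-4521 was 13th by group mean with wild type, next to miR-222-3p (3078 ± 1132) and miR-221-3p (2638 ± 809). With m4 it was 7th, and with the belt deletion it was 25th, next to miR-27a-3p (873 ± 218) and let-7a-5p (817 ± 53.2). These neighbours all overlapped with it.

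Set among the other miRNAs that were called higher with wild type, miR-4521 kept the largest share of its wild-type level without DROSHA under the reported scaling. edgeR called 132 of 310 miRNAs higher (42.6%) and 2 lower (0.645%). That balance depended on scaling: TMM gave 125 and 93, total counts 123 and 71, and the size factors of DESeq2 126 and 68. Without wild type replicate 1 there were 140 and 10. miR-4521 itself was not in the set called higher under those 3 scalings, nor without wild type replicate 2, so its place in the order holds only where it is in the set. These 132 include miR-4521 and were part of how it was chosen, so the order that follows is a description. With the empty plasmid miR-4521 was at 43% of its wild-type mean. Next came miR-222-5p at 38.4%, miR-200b-3p at 36.7% and miR-423-5p at 33.7%. The median of the 132 was 4.75%, and miR-21-5p was at 2.54%, let-7i-5p at 1.43% and miR-10a-5p at 1.1%. The 3 neighbours in this order were far less abundant without DROSHA, at 16.5, 26.6 and 48.9 scaled reads against 1188.

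With the belt deletion miR-4521 was at 29.7% of its wild-type mean, the 17th lowest of the 132, against a median of 69.1%. Lower still were miR-181b-5p at 4.85%, the p53-induced miR-34a-5p at 8.82% and miR-10a-3p at 10.1%. With the empty plasmid miR-181b-5p kept 4.27% and miR-10a-3p 1.86% of the wild-type level, and miR-34a-5p had no read. miR-99b-5p (29%) and miR-148b-3p (33.7%) stood just beside miR-4521 in this order, with 6.87% and 3.5% left with the empty plasmid. edgeR called 29 of the 132 lower and 9 higher with the belt deletion than with wild type, beside 9.35% and 3.23% of the 310 tested. The 132 were chosen for being high in the same wild-type libraries, so nothing is read from these shares. miR-4521 was the only 1 of the 132 whose mean with the belt deletion was below that with the empty plasmid, at 69.1% of it. The next lowest in this respect, miR-181b-5p, was at 114%. The choice of the 132 by their empty and wild-type levels bears on this too. Outside the 132, miR-6772-3p (-0.98 on the log2 scale), miR-9901 (-0.72) and miR-1291 (-0.59) were also lower with the belt deletion than with the empty plasmid. So were miR-5010-3p (-0.53), miR-943 (-0.27), miR-1226-3p (-0.15) and miR-4444 (-0.03). miR-7705 (0.07) and miR-1272 (0.24) were not. All of these were taken for likeness to miR-4521 over the same libraries or groups, as given below, so nothing is read from this. Among the 310 that passed the filter, the difference of miR-4521 between belt deletion and m4 was the 4th lowest. That between belt deletion and empty plasmid was the 16th lowest. These places moved when 1 library was left out, which also changed how many miRNAs were tested. The first was the 22nd of 334 without m4 replicate 1 and the 22nd of 347 without belt deletion replicate 2. The second was the 42nd of 356 without empty replicate 2 and the 41st of 347 without belt deletion replicate 2. Without the filter on low counts the first was the 175th of 1277 and the second the 228th. By DESeq2, also over 1277, they were the 126th and the 168th.

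**Figure D4:**
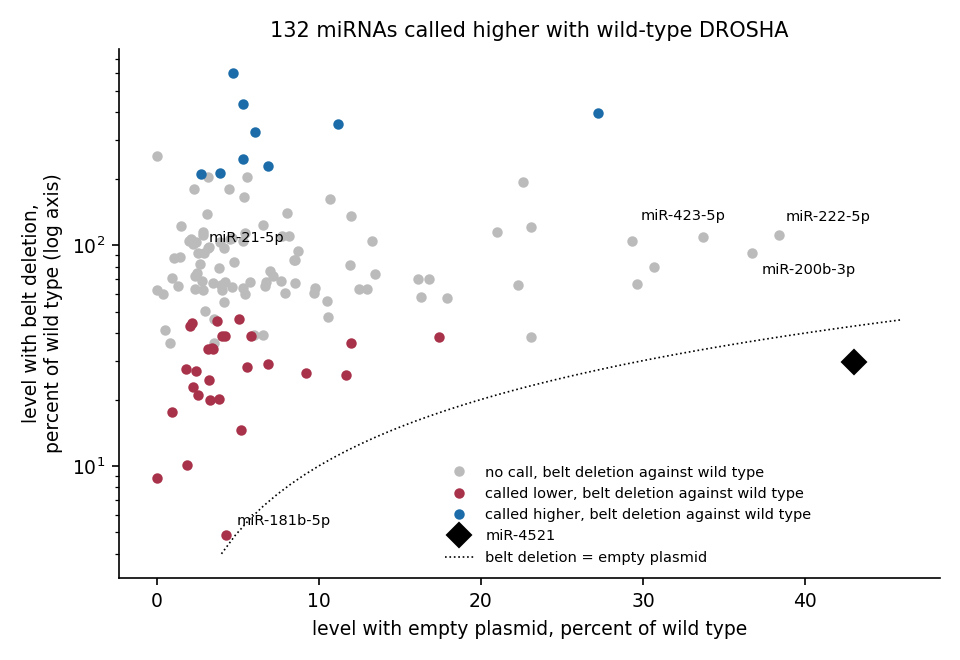
Level with the empty plasmid (x axis) against level with the belt deletion (y axis, log scale), both as percent of the wild-type mean, for the 132 miRNAs called higher with wild type. Colours give the edgeR call of belt deletion against wild type, and miR-4521 (43% and 29.7%) is the 1 point under the dotted line where both levels are equal.

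With m4 miR-4521 was at 74.8% of its wild-type mean, the 10th highest of the 132, whose median was 25.2%. The m4 libraries behind this mean ran from 816 to 3074 scaled reads. The log2 difference of m4 from wild type was -0.84 without m4 replicate 1 and -0.03 without m4 replicate 2. edgeR called 105 of the 132 lower with m4 than with wild type, beside 34.2% of the 310 tested, and the same choice of members bears on this count. miR-21-5p was at 9.2%, let-7i-5p at 4.98% and miR-10a-5p at 13.1%. Of its neighbours in the order of what was left without DROSHA, miR-222-5p was at 49.6%, miR-200b-3p at 119% and miR-423-5p at 66.8%.

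A total of 27 names linked to tRNA, snoRNA, vault RNA or Y RNA were listed for comparison, of which 11 were in the table and 6 passed the filter on low counts. With wild type against the empty plasmid edgeR called 0 of the 6 (1 at an unadjusted p under 0.05, 0 by DESeq2), where 42.6% of all miRNAs tested were called higher. Their median was 0.40 against 0.72 over all 310. The snoRNA-derived miR-664a-3p went from 68.6 ± 23.7 to 122 ± 53.7 scaled reads (0.83, edgeR adjusted p = 0.0642) and was called higher when miR-320 was left out of the reference or the reference was summed. miR-664a-5p went from 72.1 ± 11.7 to 55.5 ± 5.27 (-0.38, edgeR adjusted p = 0.465) and was called lower under TMM, under total counts and with size factors from DESeq2. With the belt deletion against wild type, edgeR called 0 of the 6 (0 at an unadjusted p under 0.05, 0 by DESeq2), where 9.35% of all were called lower, and their median was -0.14 against 0.04 over all. miR-1291, from an H/ACA snoRNA, was at 24.1 ± 3.53 with wild type and 16.2 ± 3.28 with the belt deletion (-0.58, edgeR adjusted p = 0.422). With m4 against wild type 1 of the 6 was called higher, where 3.55% of all were. Under total counts 5 were called higher, where 42.9% of all were. The 1 called was miR-3182, whose place on the list is less certain, at 408 ± 134 against 161 ± 58.8 (1.35, edgeR adjusted p = 0.00202). miR-1260b, listed for a link to tRNA that was not tested here, was at 12.5 ± 5.9 with m4 and 8.1 ± 4.61 with wild type (0.69, edgeR adjusted p = 0.443). Against the empty plasmid, where it was at 3.95 ± 2.07, miR-1260b was called higher with m4 (1.63, edgeR adjusted p = 0.0338) and with the belt deletion (14.1 ± 12.4; 1.80, edgeR adjusted p = 0.014), calls that neither DESeq2 nor edgeR under TMM made. In the latter comparison miR-4521 stood at -0.53. miR-3182 was called higher with m4 than with the empty plasmid (1.96, edgeR adjusted p = 1.43e-05) and lower with the belt deletion than with m4 (-1.65, edgeR adjusted p = 0.000244). Under the reported scaling no other of the 6 was called in these 3 comparisons. Over all tested, 41.0% were called higher for m4 against empty and 42.9% for belt deletion against empty. For belt deletion against m4, 1.29% were called lower. miR-1291 was called lower with the belt deletion than with the empty plasmid under TMM, total counts and the size factors of DESeq2. miR-664a-3p was called higher with m4 than with the empty plasmid under total counts, with the summed reference and with a replicate block. Both were called lower with the belt deletion than with m4 under total counts. Shares over all under these settings are not given here.

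The miRNAs most like miR-4521 in pattern were scarce ones. Likeness was measured on log2(scaled reads + 0.5), as Pearson's r over the 12 libraries and as the distance between group profiles centred on their mean, over 309 other miRNAs. The libraries share their size factors and depths, so r is a description and carries no p. The highest r was that of the mirtron miR-1226-3p, at 0.83 (Spearman's rho 0.79), where the median over all was 0.12. Without wild type replicate 2 and m4 replicate 1, the 2 libraries farthest from the median of miR-4521, it was 0.755. miR-1226 is also 1 of the 5 scaling references. Next came miR-9901 (0.757), miR-1291 (0.714), miR-6772-3p (0.661), miR-181b-5p and miR-943 (0.657 each). Without the same 2 libraries these were 0.685, 0.74, 0.787, 0.653 and 0.449.

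By group profile the nearest were miR-9901 (distance 0.40), miR-4444 (0.47), miR-1226-3p (0.53), miR-1272 (0.65), miR-5010-3p and miR-7705 (0.66 each), where the median distance was 1.87. Over single libraries 4 of these were less alike, with r of 0.38 for miR-4444, 0.408 for miR-1272, 0.53 for miR-5010-3p and 0.508 for miR-7705. Without the 2 libraries named above these were 0.668, 0.156, 0.334 and 0.322. miR-9901 stood at 18.2 ± 7.11 scaled reads in the wild-type group, 13.5 ± 5.01 in the m4 group, 10.7 ± 0.829 in the empty group and 6.56 ± 1.27 in the belt group. In the same order miR-1226-3p stood at 51 ± 13.2, 43 ± 28.4, 28.1 ± 12.7 and 25.1 ± 10.9. Both had the group order of miR-4521, but they were chosen for likeness to it over the same groups, so nothing is read from this. miR-181b-5p, high in r, was far in profile (2.55), with 70.4 ± 14.9, 5.34 ± 0.214, 3.01 ± 0.885 and 3.41 ± 1.66.

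**Figure D5:**
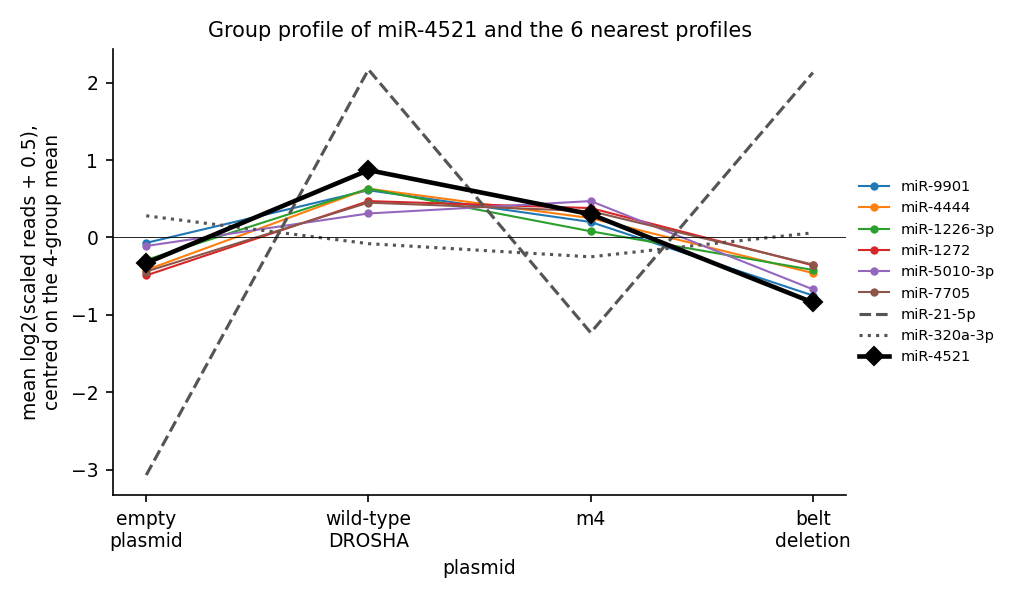
Group means of log2(scaled reads + 0.5), centred on the mean of the 4 groups, for miR-4521 (black), the 6 nearest profiles (colours), miR-21-5p (dashed) and miR-320a-3p (dotted). miR-4521 runs from 0.87 with wild type to -0.84 with the belt deletion, where miR-21-5p is at 2.17 and 2.13.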

How the data were processed

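Per the labels' protocols, each library started from 10 µg of total RNA, whose 19 to 24 nt fraction was cut from a 15% gel and cloned with a NEBNext kit. The authors deposited raw read counts in 1 table, with a line for each mature miRNA of each hairpin. cutadapt, Bowtie2 and hg38 are named in the submitters' processing notes; the counter, miRNA annotation and use of strand are not given in the sources used here. Blanks (42.7% of cells) were read as 0. Lines of 1 mature name were collapsed to the line with most reads, and names whose reads were the same were merged, in 9 pairs (within 5 reads or 5% in each library, over 120 reads in total) were merged; miR-4521 had 1 line.

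Size factors were median ratios over DROSHA-independent features that had 20 reads or more in each of the 12 libraries. edgeR 4.0.16 (R 4.3.3; quasi-likelihood, robust, 4 groups, 12 libraries, no covariates) tested the 310 miRNAs kept by filterByExpr, with Benjamini-Hochberg adjustment and calls at an adjusted p under 0.05. Each standard error was obtained by dividing the log2 difference by the square root of F. The fit was tested on simulated counts, judged relative to the unchanged miRNAs, because error in the reference size factors shifted all differences together. The simulation left the reference features unchanged, so it cannot judge the choice of scaling. DESeq2 1.42.0, 4 further scalings, a reference without miR-320, no filter, summed copies, a replicate block and leaving out each library were alternatives. Folds used RNAfold 2.7.2. Named miRNAs were taken by likeness, by place in each order, by list, by seed and by position. Neighbours miR-99b-5p, miR-148b-3p and the lowest with the belt deletion were chosen after their values were seen. miR-4521 and the lists were chosen with earlier results of these data known. RefSeq matched 1140 of 1277 mature names.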

Additional observations from a re-analysis of the deposited data

How the results depend on the processing

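The processing was varied in 9 alternatives and in 12 fits that each left out 1 library. Across these, the difference of miR-4521 between belt deletion and wild type moved by less than the spread between replicates (0.37). That between m4 and empty plasmid (0.80) did so too, but there the spread (0.77) was about as large as the difference. It was 0.20 under TMM, 0.39 with the size factors of DESeq2, 1.17 under total counts and 1.54 with the summed reference. The difference of wild type from the empty plasmid (1.22) was 0.30 under TMM, 0.54 with the size factors of DESeq2 and 0.36 under total counts. That of the belt deletion from the empty plasmid (-0.53) was -1.27, -1.16 and -1.35 under the same 3. Under total counts m4 minus wild type (-0.42) turned to 0.81, and belt deletion minus m4 (-1.33) was -2.51. The cause was not tested. miRNAs called for wild type against the empty plasmid numbered 134, and 218 under TMM. For m4 against wild type they numbered 117 (11 higher, 106 lower), and 193 under total counts (133 higher, 60 lower). For belt deletion against wild type 10 were called higher and 29 lower, and 26 and 29 under TMM.

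Leaving out 1 library gave 0.93 to 1.40 for wild type minus empty, 0.37 to 1.21 for m4 minus empty, -0.72 to -0.35 for belt deletion minus empty, -0.84 to -0.03 for m4 minus wild type, -1.93 to -1.46 for belt deletion minus wild type and -1.74 to -0.91 for belt deletion minus m4. The called miRNAs ran from 139 to 150, from 98 to 129 and from 29 to 45 in the 3 comparisons above. Those higher with m4 than with wild type numbered 26 without m4 replicate 1 and 2 without m4 replicate 3. Those lower with wild type than with the empty plasmid numbered 10 without wild type replicate 1, against 2. Those higher with the belt deletion than with wild type numbered 6 without wild type replicate 3 or belt deletion replicate 2, against 10. With a replicate block the 6 differences of miR-4521 were 1.23, 0.78, -0.54, -0.46, -1.77 and -1.31, in the order just given, and the calls were 134, 112 and 38. Same-numbered libraries correlated in their deviations by -0.241 to 0.136, over 0.1 in 2 of 18 pairs. A library correlated best with its own number in 6 of 36 comparisons. The deviations are from means of only 3 libraries, so these values cannot decide whether same-numbered libraries shared a culture or day. The labels do not say, and the reported fit used no pairing. With 3 libraries a group and m4 libraries that differ 3.77-fold, the difference of m4 from wild type was smaller than the spread between replicates (0.78), and that of m4 from empty (0.80) was about as large as it (0.77).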
